A study of Mus musculus with 9 samples.

Results

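The BAF (SWI/SNF) complex is an ATP-dependent chromatin remodeller that slides and evicts nucleosomes, and the 31 mouse genes listed here encode its subunits. A gene was measured through the window that holds its annotated 5′ end in a table of GpC methylation, and 30 of the 31 genes had such a window with a value in all 9 libraries. The percent of each such window is set beside those of 19613 windows that hold the 5′ ends of other protein-coding genes in the same library.

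The cells were female mouse embryonic stem cells (mESC) from a cross of FVB/NJ dams with CAST/EiJ sires, grown in 2i medium and then differentiated by transfer to DME HiHi medium. A single library came from undifferentiated cells at day 0. The other libraries came from cells transduced on day 2 of differentiation with either a non-silencing hairpin (Nons) or 1 hairpin against Smarcc1, selected with puromycin from day 3 and harvested at day 4, 5, 6 or 7, with 1 library for each hairpin and day and so no replicates. All groups share the FVB/CAST F1 background, and reads of both alleles were merged. NOMe-seq treats the nuclei of fixed cells with an enzyme that methylates the cytosine of GpC where the DNA is accessible, so a higher percent of GpC methylation means a more open window. The percent is an average over the cells, so a promoter open in fewer cells and one less open in each cell cannot be told apart.

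Levels differed as a whole between libraries. The median of the other promoters was 15% at day 0, between 8.86% and 30.4% in Nons and between 9.68% and 26.2% after Smarcc1 knockdown, with both day 5 libraries standing apart as the highest. For that reason each gene is also given as a percentile, the percent of other promoters in the same library with a lower value. The table gives no read counts, so the depth behind a percent is unknown and no counting interval can be given. RNA was not measured in this assay, so neither the knockdown nor the state of the cells can be checked in these values.

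Canonical BAF and PBAF are built around a core in which Smarcc1 and Smarcc2 form the scaffold, with Smarcb1, Smarce1 and a Smarcd subunit. An ATPase module containing Smarca4 or Smarca2 drives remodelling. Further subunits distinguish 3 forms. Canonical BAF has Arid1a or Arid1b and a Dpf subunit. PBAF has Arid2, Pbrm1, Brd7 and Phf10, and non-canonical BAF has Brd9 and Bicra or Bicral. Embryonic stem cells use a form rich in Smarca4 and Smarcc1, and neurons exchange several subunits for Actl6b, Dpf1, Dpf3 and Ss18l1.

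The sequence that the Smarcc1 hairpin pairs with is shown because every knockdown value below depends on it. It lies at chr9:110177472-110177493 (mm10, plus strand) in a coding stretch of exon 13 and is found in 4 of the 6 protein-coding transcripts of Smarcc1, with the bases that face guide positions 2 to 8 in capitals.
Smarcc1 hairpin target: gcaggatgaagaagCAGTTACa

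Only GpC cytosines outside CpG report accessibility, since CpG cytosines carry the cells' own methylation. To show how many of these a promoter offers, stretches free of annotated exons just upstream of RefSeq starts (GRCm38.p6) are printed for the targeted gene, the main ATPase, and the genes with the highest and lowest mean percentile among the 24 of 31 with an entry in the RefSeq promoter table. Capitals mark each GC with at least 1 informative cytosine on either strand.
Smarcc1, chr9:110131774-110131979, plus strand: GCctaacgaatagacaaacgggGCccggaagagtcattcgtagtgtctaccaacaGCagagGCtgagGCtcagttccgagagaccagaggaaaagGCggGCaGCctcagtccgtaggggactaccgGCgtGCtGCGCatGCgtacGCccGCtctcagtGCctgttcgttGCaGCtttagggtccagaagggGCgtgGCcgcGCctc
Smarca4, chr9:21615919-21616168, plus strand: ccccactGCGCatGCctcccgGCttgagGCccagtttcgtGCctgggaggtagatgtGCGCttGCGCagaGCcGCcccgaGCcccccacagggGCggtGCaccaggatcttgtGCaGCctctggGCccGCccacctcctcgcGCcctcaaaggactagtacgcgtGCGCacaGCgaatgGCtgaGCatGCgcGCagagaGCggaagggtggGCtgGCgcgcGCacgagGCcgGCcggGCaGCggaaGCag
Dpf1, chr7:29303755-29303950, plus strand: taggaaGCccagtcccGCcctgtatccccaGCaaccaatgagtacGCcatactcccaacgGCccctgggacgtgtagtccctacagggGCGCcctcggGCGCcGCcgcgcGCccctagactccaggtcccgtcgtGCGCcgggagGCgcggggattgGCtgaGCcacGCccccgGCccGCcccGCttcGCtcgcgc
Ss18l1, chr2:180042434-180042482, plus strand: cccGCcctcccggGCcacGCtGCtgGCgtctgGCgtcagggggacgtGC

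The Smarca4 stretch held 53 informative cytosines in 250 bases, or 21.2 per 100 bases, against a median of 11.2 per 100 over the 250 upstream bases of 32851 mouse promoters. The densities were 15.5, 13.8 and 18.4 per 100 bases for Smarcc1, Dpf1 and Ss18l1, so all 4 stretches were richer than the median promoter. The stretch of Ss18l1 is short because exons of Psma7, whose 5′ end lies in the same window, cover the rest. Among these 4 stretches Smarca4 had the highest density of reporting positions and Dpf1 the lowest. This order cannot be set against the percentiles. Only 0 of 206 bases for Smarcc1 and 22 of 250 for Smarca4 lay in the windows that were ranked. A window of the table spans far more than a core promoter, with a median of 2225 bp for the subunit genes.

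The promoters of BAF subunit genes were more open than the typical promoter in every library. The median subunit gene lay at 21.2% at day 0, at 25.6, 40.1, 19 and 11.1% in Nons at days 4 to 7, and at 17, 34.6, 17.5 and 14.3% after knockdown at the same days. The medians of the other promoters were 15%, then 19.1, 30.4, 14.3 and 8.86%, then 15, 26.2, 16.1 and 9.68%. As percentiles, the median subunit gene stood at 71.8 at day 0, at 73.4, 77.1, 67.2 and 63.0 in Nons and at 59.3, 76.1, 55.6 and 69.6 after knockdown, a mean of 68.1 with an SD of 7.50 over the 9 libraries. Between 16 of 30 (knockdown day 6) and 27 of 30 (knockdown day 5) genes were above the median of the other promoters.

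**Figure D1:**
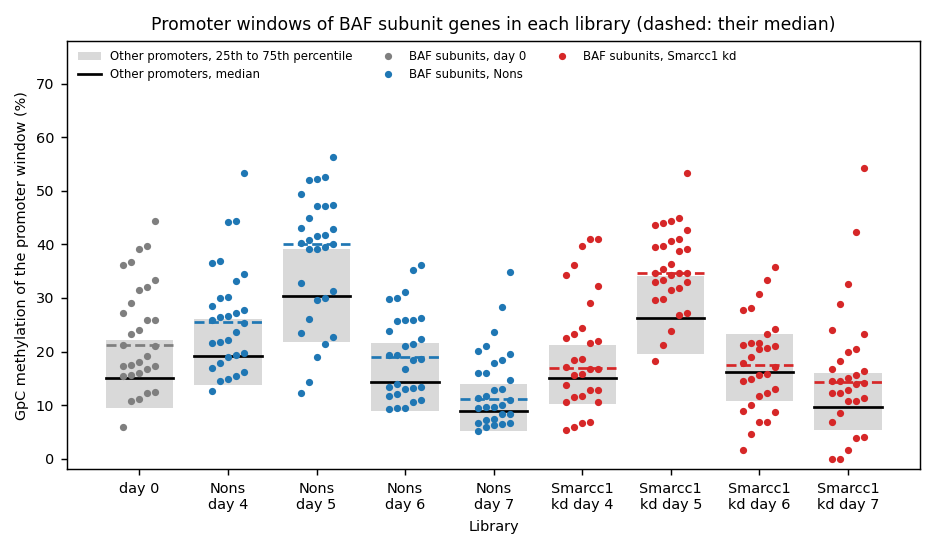
GpC methylation in percent (vertical axis) of the promoter windows of 30 BAF subunit genes (points) in each of 9 libraries (horizontal axis). Grey boxes span the 25th to 75th percentile of 19613 other promoters, black lines are their median and dashed lines the median of the subunit genes, which lies above the black line in every library, by 9.68 percentage points in Nons day 5 and by 1.35 in knockdown day 6.

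The windows of the subunit genes were also richer in GC, with a median of 54.4% against 48.8% for the other promoters, and held 76.4 GpC per kb against 56.7. Set beside only those promoters within 5 percentage points of its own GC content, the median subunit gene stood at percentile 62.9 at day 0, at 56.8, 69.9, 56.2 and 48.2 in Nons, and at 53.2, 68.0, 48.6 and 64.3 after knockdown. The mean over libraries was then 58.7 rather than 68.1, and in 2 libraries (Nons day 7 and knockdown day 6) the median subunit gene was below promoters of like GC. Without a match on GC, the 42 measured genes of other remodeller families (ISWI, CHD and NuRD, INO80) had a median of mean percentiles of 69.0. The BAF genes were at 64.7, so a high unmatched rank was shared with other remodellers. The windows of those families had a median GC of 52.3%, and their rank among promoters of like GC was not computed.

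The genes Bicra, Dpf1 and Dpf3 were above the median of the other promoters in all 9 libraries. They are 3 of 30, or 10%, where 4.8% of the other promoters were. The same 3 genes were above it in the 7 libraries other than day 5, where 6.32% of other promoters were. Against promoters of like GC content 0 of the 30 genes were above the median in all 9 libraries, where 3.48% of other promoters were.

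Bicra, which encodes a defining scaffold subunit of the non-canonical complex, had the most open promoter of the 30 by mean percentile (89.7 ± 10.3, SD over 9 libraries). Its window (chr7:16046532-16048817, mm10, GC 62.9%) read 39.1% at day 0, 53.3, 52.2, 20.97 and 18.3% at days 4 to 7 of the Nons series and 29.03, 33.3, 35.7 and 42.3% at those days after knockdown. Its lowest percentile in any library was 72.7. Dpf1, a neuronal subunit with PHD fingers, which bind modified histone tails, read 15.9% at day 0, 30.1, 45, 23.8 and 23.6% in Nons and 41.03, 34.6, 20.5 and 54.2% after knockdown, with the highest value of any subunit gene in knockdown day 7. Dpf3, its paralog, read 23.3% at day 0, 36.5, 40.7, 29.7 and 17.9% in Nons and 18.3, 39.6, 17.8 and 14.6% after knockdown. Both stayed in the upper part of the distribution, at mean percentiles of 82.2 ± 15.1 and 78.1 ± 12.1.

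At the other end, Bcl7a, an accessory subunit of the ATPase module, was at mean percentile 38.6 ± 27.8. Its values were 24.1% at day 0, 12.6, 12.3, 9.38 and 5.88% in Nons and 10.7, 18.2, 17.2 and 20.5% after knockdown, the lowest of all subunit genes in Nons day 4, Nons day 5 and knockdown day 5. Ss18l1, the neuronal counterpart of Ss18, read 15.6% at day 0, 25.9, 14.3, 10.5 and 12.8% in Nons and 12.8, 27.1, 8.82 and 1.69% after knockdown and had a mean percentile of 39.3 ± 25.4. Phf10, the PBAF subunit that neural progenitors carry, moved more between libraries than any other member (mean percentile 47.01 ± 35.2). It read 36.7% at day 0, 21.6, 18.9, 13.3 and 6.45% in Nons and 5.88, 43.7, 1.56 and 15% after knockdown, and so spanned percentiles from 0.854 to 95.2. In the order of the 30 genes from Bicra to Bcl7a, the step between neighbours was never larger than the SD of either neighbour over the libraries.

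**Figure D2:**
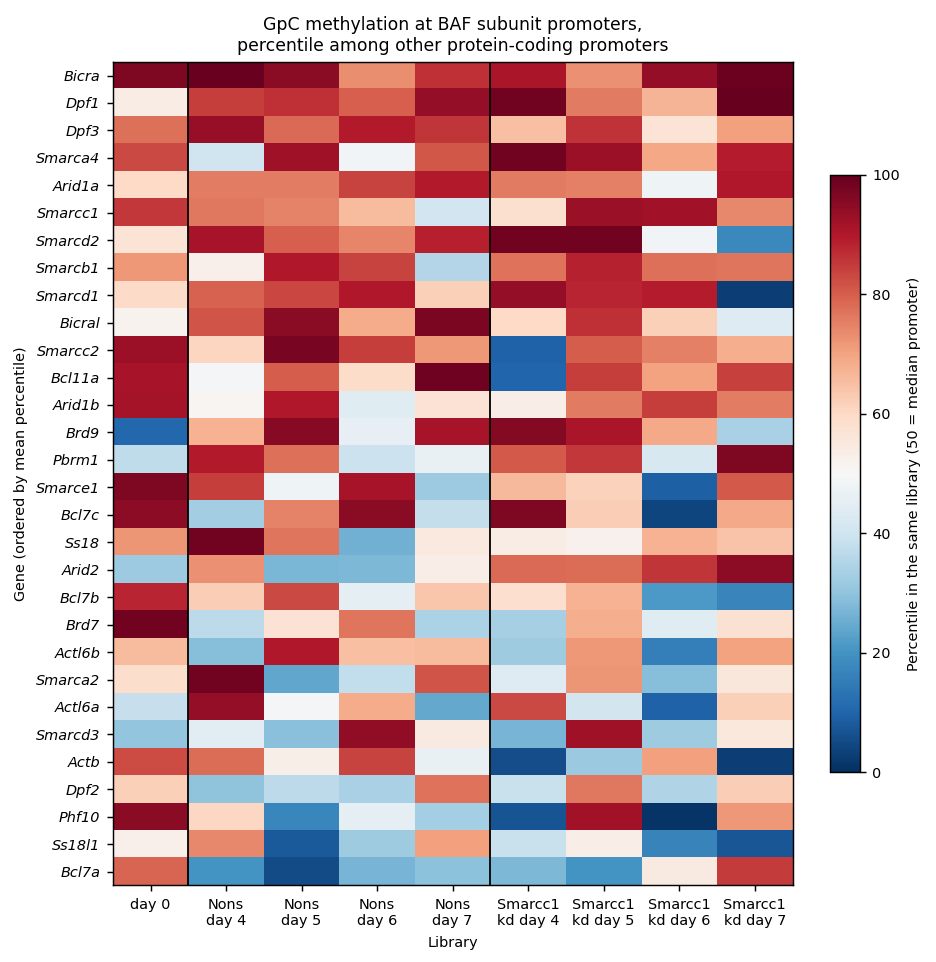
Percentile of each of 30 BAF subunit promoters (rows, ordered by mean percentile) among other protein-coding promoters of the same library (columns; kd is knockdown), from blue (0) through white (50) to red (100). The rows of Bicra, Dpf1 and Dpf3 stay above 50 throughout, while most other rows change colour between libraries, down to percentile 0.854 for Phf10 in knockdown day 6.

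The position of a single gene was only weakly repeated between libraries. Over the 36 pairs of libraries, Pearson's r across the 30 subunit genes had a median of 0.180 and ranged from -0.246 to 0.463, and across the 19613 other promoters it had a median of 0.321 and ranged from 0.234 to 0.468. These are correlations across genes, which are not independent replicates, of libraries that share cells of one origin and differ in day and hairpin.

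Within the core, 6 of the 7 genes had mean percentiles between 63.2 and 73.4. Smarcc1 (chr9:110117185-110119155), the scaffold subunit that was targeted, read 27.3% at day 0, 26.7, 39.2, 18.6 and 7.45% in Nons and 16.7, 44.9, 33.3 and 15.6% after knockdown, and was above the other-promoter median in 8 of 9 libraries. Smarcc2, its paralog and partner, read 33.3% at day 0, 21.7, 56.2, 26.3 and 13.04% in Nons and 6.67, 36.4, 23.3 and 13.9% after knockdown. The paralogs had close mean percentiles, 73.4 ± 16.9 and 71.1 ± 25.9. Both peaked at day 5 in either arm, as did 74.8% of other promoters in Nons and 69.1% in the knockdown.

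The other core genes were Smarcb1, which contacts the nucleosome face, Smarce1, which binds DNA through an HMG box, and the Smarcd paralogs, which link the complex to transcription factors. Smarcb1 ranged from 6.76% to 47.1% over the 9 libraries, with a mean percentile of 72.6. Smarce1 ranged from 6.25% to 39.7%, with 63.2. Smarcd1 (0% to 43.1%, mean percentile 72.05) and Smarcd2 (4.00% to 53.4%, 72.7) had higher mean percentiles than Smarcd3 (9.57% to 44.05%, 51.03). Smarcd1 and Actb were listed at 0 in knockdown day 7, as were 5.53% of the other promoters in that library.

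Of the subassemblies with several genes measured, the ATPase module had the lowest median of mean percentiles, 55.8 over its 10 genes. PBAF was next at 58.6 over 4 genes. Against promoters of like GC, Arid2, Pbrm1, Brd7 and Phf10 of PBAF were at 48.6, 65.1, 48.4 and 44.2. The ATPase genes then ran from 26.1 (Ss18l1) to 74.4 (Smarca4), so their module was not clearly the lower there. Within the module, Smarca4 (chr9:21616147-21618277), the ATPase of the embryonic stem cell complex, was an exception at 77.2 ± 20.6. It read 25.9% at day 0, 16.9, 49.4, 14.04 and 16% in Nons and 41.1, 44.3, 21.3 and 23.3% after knockdown. Smarca2, the alternative ATPase, read 17.2% at day 0, 44.2, 21.4, 11.6 and 16.1% in Nons and 13.7, 33.1, 11.6 and 10.8% after knockdown, at a mean percentile of 55.5 ± 24.9. Smarca4 was the higher of the pair in 7 of the 9 libraries, Nons day 4 and day 7 being the exceptions, and in Nons day 7 the values differed by little.

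Actl6a and Actl6b encode actin-related subunits that neurons exchange for each other. Actl6a read 12.5% at day 0, 36.8, 30.04, 19.4 and 5.19% in Nons and 24.4, 23.8, 6.94 and 12.2% after knockdown, and Actl6b read 19.2% at day 0, 14.6, 47.3, 18.4 and 11.7% in Nons and 11.5, 32.9, 8.64 and 14.5% after knockdown. Neither was consistently the more open, with mean percentiles of 52.2 ± 27.3 and 56.1 ± 24.5. Ss18, which tethers the module to the core and is fused to another gene in synovial sarcoma, read 21.2% at day 0, 44.3, 40, 9.23 and 9.62% in Nons and 15.8, 26.9, 20.6 and 12.8% after knockdown, a mean percentile of 62.8 ± 19.9 that is above that of its neuronal counterpart Ss18l1. Bcl7b and Bcl7c, the paralogs of Bcl7a, had mean percentiles of 56.3 and 63.1. Beta-actin, encoded by Actb, is both a subunit and the main cytoskeletal actin, and read 25.8% at day 0, 27.3, 31.3, 25.8 and 8.33% in Nons and 5.41, 21.3, 21.6 and 0% after knockdown.

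In the canonical group the DNA-binding subunits Arid1a (15.7% to 39.5%, mean percentile 74.9 ± 13.6) and Arid1b (10% to 47.4%, 69.3 ± 18.2) were each above the median of other promoters in 8 of 9 libraries. The Arid1b window holds the gene's GENCODE and RefSeq 5′ ends but 0 of its 4 protein-coding transcript starts. Dpf2, the Dpf paralog found in most tissues, was the least open of its family. Its window holds the gene's outermost 5′ end but 0 of its 3 protein-coding transcript starts. It read 18.1% at day 0, 14.8, 26.2, 10.9 and 14.7% in Nons and 12.8, 34.7, 12.96 and 12.3% after knockdown, a mean percentile of 50.3 ± 19.1. The window at its RefSeq start, 139 bp further into the gene, had a mean percentile of 70.1, still under those of Dpf1 and Dpf3. In this family, then, the 2 neuronal paralogs Dpf1 and Dpf3 ranked above the broadly used one, whereas in the Ss18 family the neuronal gene ranked lower. Over all 4 neuronal subunits the median of mean percentiles was 67.1, against 51.2 for their 4 counterparts (Actl6a, Dpf2, Phf10 and Ss18). The lists overlapped, from 39.3 to 82.2 and from 47.0 to 62.8, and differed in median GC content (56.5% and 49.0%). At RefSeq starts, which move the windows of Actl6a and Dpf2, the medians were 67.2 and 66.5, so the gap is not seen there. The difference was not tested.

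The PBAF genes were Arid2, which defines the complex, Pbrm1, which carries a row of bromodomains, Brd7 and Phf10. Pbrm1 ranged from 8.33% to 40.2% (mean percentile 66.1) and Brd7, a bromodomain protein, from 6.58% to 44.4% (56.2). Of the non-canonical group, Brd9, the bromodomain subunit that defines it, ranged from 5.88% at day 0 to 52.5% in Nons day 5, at 66.6 ± 30.6, and Bicral, the paralog of Bicra, was at 71.7 ± 19.1. Bcl11a, a zinc-finger factor of lymphoid and neural cells that copurifies with BAF, ranged from 6.90% to 41.7%, at 69.8 ± 27.2. Its paralog Bcl11b is the gene without a complete window. That window (chr12:108002063-108003966) read 29.0% at day 0, 20.3, 50, 33.3 and 17.6% in Nons, and 19.6, 41.8 and 2.13% after knockdown at days 4, 5 and 7, with no value at day 6.

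The mean signal of the subunit genes peaked at their 5′ ends. Averaged over the 9 libraries, windows centred within 1 kb of the start were at 23.3% for the subunit genes and 19.8% for other genes. At 2 kb into the gene the means were 18.6% and 15.3%, and at 2 kb upstream 16.0% and 15.1%. The subunit genes were also higher at other distances, with 15.8% against 13.8% at 4 kb into the gene, 15.2% against 13.7% at 14 kb into it, 15.7% against 13.9% at 4 kb upstream and 15.8% against 13.9% at 18 kb upstream. From 6 kb into the gene to 12 kb they lay between 13.2% and 14.1%, beside 13.7% for the others. A bin held 20 to 30 windows of subunit genes, and the differences were not tested.

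**Figure D3:**
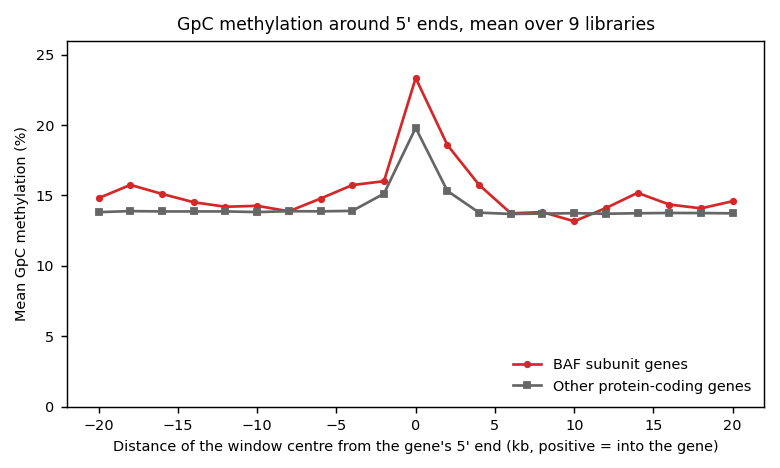
Mean GpC methylation over 9 libraries in percent (vertical axis) against the distance of a window's centre from the 5′ end in bins of 2 kb (horizontal axis), for BAF subunit genes (circles) and other protein-coding genes (squares). Both lines peak at the 5′ end, at 23.3% and 19.8%, and the subunit genes are also higher in several other bins, such as 2 kb into the gene (18.6% and 15.3%) and 18 kb upstream (15.8% and 13.9%).

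Gene bodies of the subunit genes had levels close to those of other genes. The median body level was 11.7% against 11.5% at day 0, 14.2, 21.3, 10.5 and 6.95% against 14.1, 21.4, 10.4 and 6.54% in Nons, and 12.0, 19.8, 12.3 and 8.27% against 11.4, 20.2, 12.1 and 7.46% after knockdown. The promoter exceeded the body by a median of 9.80 percentage points at day 0 for the subunit genes and 4.35 for other genes. In Nons the excess was 10.2, 18.1, 5.73 and 3.93 points at days 4 to 7, against 5.92, 10.3, 4.84 and 2.94 for other genes. In the knockdown it was 4.64, 15.7, 5.02 and 6.17 points, against 4.35, 7.11, 5.03 and 2.86. The excess of the subunit genes was therefore larger than that of other genes in 8 libraries, though by little in knockdown day 4. In knockdown day 6 it was about equal. Neither this excess nor the counts below were matched on GC content, and the subunit promoter windows were richer in GC (median 54.4% against 48.8%).

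A promoter above the median of its own gene body in all 9 libraries was found for 6 of 30 subunit genes, or 20% (Bicra, Smarca4, Dpf3, Arid1a, Arid1b and Pbrm1), beside 14.7% of 17668 other genes. The same 6 genes passed in the 7 libraries other than day 5, beside 16.9% of other genes. Bicra had the largest mean excess, 24.1 points over a body of 34 windows at a mean of 11.98%, and Smarca4 the next at 16.3 points over 42 windows. Bcl7a had an excess of 0.672 points and its promoter was above the body in only 4 of 9 libraries. Actb is the single gene with a mean below its body (-9.40 points), but its short gene held only 1 body window, at a mean of 27.9%.

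**Figure D4:**
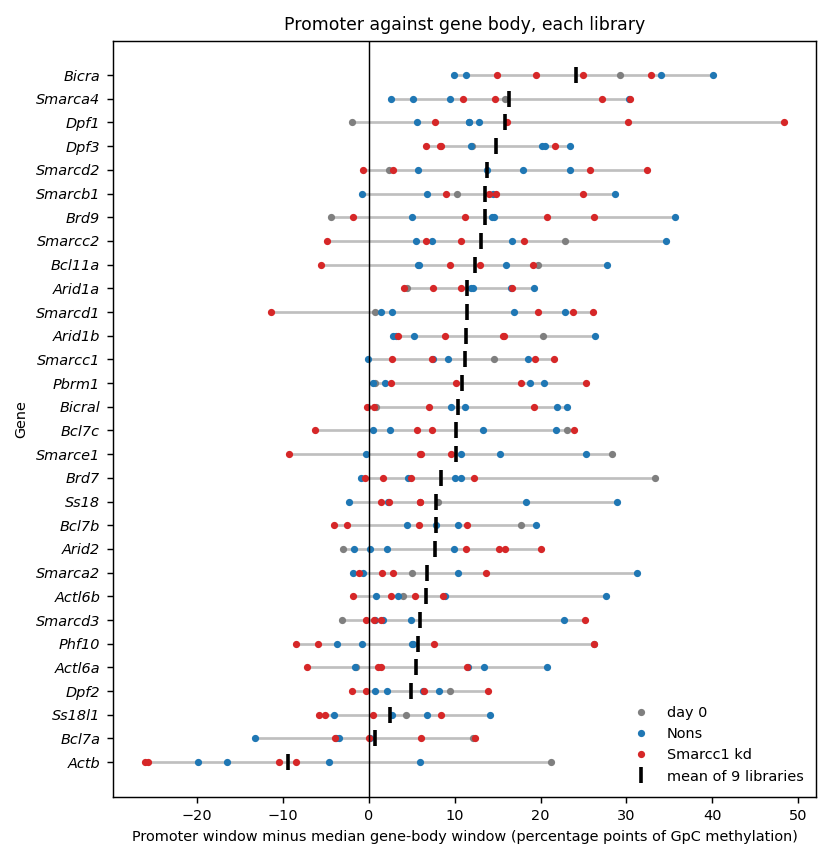
Promoter window minus the median gene-body window, in percentage points of GpC methylation (horizontal axis), for 30 BAF subunit genes (vertical axis). Each point is 1 library (grey day 0, blue Nons, red Smarcc1 knockdown; kd is knockdown) and the black bar is the mean of 9 libraries, which runs from -9.40 for Actb to 24.1 for Bicra.

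Along the Nons series, 20 of 30 subunit genes (66.7%) had their highest value at day 5, beside 74.8% of other promoters. In the knockdown series 24 of 30 (80.0%) did, beside 69.1% of other promoters. The day 5 peak was thus common to most promoters and both series. The exceptions in Nons were 8 genes highest at day 4 (Smarca2, Arid2, Bicra, Actl6a, Phf10, Ss18, Ss18l1 and Bcl7a) and 2 at day 6 (Smarce1 and Smarcd3), beside 14.9% and 8.91% of other promoters. At day 7, 22 of 30 genes in Nons and 14 of 30 in the knockdown had their lowest value, where 66.5% and 58.5% of other promoters had theirs.

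The knockdown addresses whether loss of a core subunit changed the promoters of the complex's own genes. The median subunit gene was below other promoters in this difference on days 4 to 6 and above them on day 7. The median difference, knockdown minus Nons, was -6.38, -4.07, -1.65 and 3.52 percentage points at days 4, 5, 6 and 7 for the subunit genes, and -3.98, -3.40, 1.66 and 0.758 for the other promoters. The relative differences were therefore -2.39, -0.670, -3.31 and 2.76 points, with a mean of -0.902 and an SD over days of 2.68. The day 5 value changed sign under 4 of 10 alternatives, and the mean was -0.0997 without day 6 and -2.12 without day 7. With 1 library on each side of a day, the difference of the group was not tested. At day 4, 23 of 30 genes were lower in the knockdown, where 67.7% of other promoters were, and at day 7, 19 of 30 were higher, where 53.4% were.

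**Figure D5:**
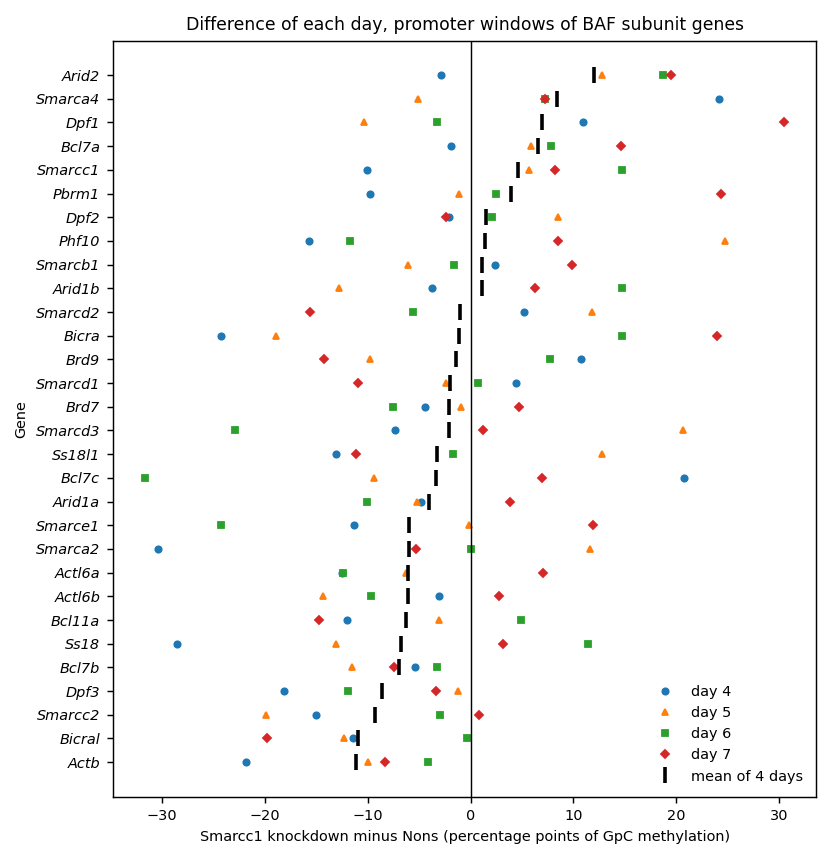
Knockdown minus Nons in percentage points of GpC methylation (horizontal axis) for 30 BAF subunit promoters (vertical axis, ordered by mean), with 1 marker per day and a black bar for the mean of the 4 days. Means run from -11.1 (Actb) to 12.03 (Arid2), and for most genes the 4 days lie on both sides of 0.

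With 1 library for each hairpin and day, the only test available treats the 4 days as pairs and asks for a difference shared by all of them. In limma with day as a block, 0 of 829493 windows passed an adjusted p of 0.05 (0% called, Benjamini-Hochberg over all windows), and so 0 of the 30 subunit genes did. At an unadjusted p under 0.05, 1 subunit gene (Arid2, 3.33%) was higher in the knockdown, beside 1.58% of all windows and 2.89% of other promoter windows. By the same measure 4 genes (Actb, Bicral, Smarcc2 and Dpf3, 13.3%) were lower, beside 2.65% of all windows and 7.59% of other promoter windows. A sign-flip test of 4 pairs cannot go below an exact two-sided p of 0.125. Values are therefore given for single genes without a call.

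The genes Actb, Bicral and Bcl7b were below the median difference of other promoters on all 4 days. These 3 genes are 10% of the subunit genes beside 6.29% of other promoters. At RefSeq starts the genes were Actb, Bcl7b and Bcl11a, 3 of 31, beside 6.23% of other promoters. Actb differed by -21.9, -10.01, -4.18 and -8.33 points at days 4 to 7, with a mean of -11.1 (limma SE 3.96, unadjusted p = 0.0123, adjusted p = 0.995). Bicral read 15.5% at day 0, 28.6, 52.1, 19.4 and 28.4% in Nons and 17.1, 39.8, 19.05 and 8.57% after knockdown, a mean difference of -10.96 points (SE 4.00, unadjusted p = 0.0139, adjusted p = 0.995 by limma). The knockdown value was the lower on each day for both, although the day 6 difference of Bicral was only -0.355 points. In the window at the RefSeq start of Bicral the differences were -4.62, -21.7, -38.3 and 29.7 points (limma unadjusted p = 0.238), so the gene was not lower on all days there. Bcl11a was singled out after its values were seen, and had a mean of -6.24 points at its GENCODE start (limma unadjusted p = 0.145). At its RefSeq start it differed by -22.0, -7.63, -1.17 and -17.8 points, a mean of -12.1 (limma unadjusted p = 0.00935, adjusted p = 0.995). Bcl7b read 29.1% at day 0, 22.2, 42.9, 13.3 and 11.3% in Nons and 16.8, 31.4, 10 and 3.85% after knockdown, a mean difference of -6.92 points (SE 3.70).

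Arid2 and Bcl7a were above the median difference of other promoters on all 4 days, 6.67% of the subunit genes beside 6.41% of other promoters. Arid2 (chr15:96287051-96289848) read 11.1% at day 0, 25.3, 22.6, 9.52 and 9.38% in Nons and 22.4, 35.4, 28.2 and 28.9% after knockdown. Its mean difference of 12.03 points was the highest of the 30 (limma SE 4.23, unadjusted p = 0.0113, adjusted p = 0.995), with the knockdown higher on days 5, 6 and 7 and a difference of -2.87 points on day 4. Bcl7a differed by -1.95, 5.87, 7.80 and 14.6 points at days 4 to 7, with a mean of 6.59. Both counts lie near their backgrounds.

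For the scaffold and ATPase pairs, the signs of the mean over 4 days differed within each pair at GENCODE starts. The mean difference was 4.64 points at the Smarcc1 window (SE 4.25, limma unadjusted p = 0.290) and -9.26 at Smarcc2 (SE 4.17, unadjusted p = 0.0403). It was 8.40 points at Smarca4 (SE 4.42, limma unadjusted p = 0.0748) and -6.02 at Smarca2 (SE 5.21). Smarca4 owed most of its mean to day 4, when it was 16.9% in Nons and 41.1% after knockdown. Smarca2 differed the other way that day, from 44.2% in Nons to 13.7% after knockdown. The adjusted p was 0.995 for all 4 genes, and the difference between paralogs was not tested. At the RefSeq start of Smarcc1 the mean was -5.40 points, the same sign as Smarcc2. Without day 4 the mean was 3.15 points at Smarca4 and 2.12 at Smarca2, also of the same sign. Dpf3 had a mean of -8.64 points, lower on all 4 days (SE 3.98, limma unadjusted p = 0.0445), while Dpf1 had 6.94 and Dpf2 1.53. Relative to other promoters, Dpf3 was 2.21 points higher on day 5 and so not on 1 side on all days. Bicra had a mean near 0 (-1.12) made of -24.3, -18.9, 14.7 and 23.97 points at days 4 to 7, so its early differences were lower and its late ones higher.

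A value belongs to a window, and the window follows the annotated 5′ end. Of the 30 windows, 28 held untranslated and 18 coding sequence of the subunit gene, 11 held exons of another gene and 5 the 5′ end of one (Dhx30 with Smarcc1, Gnl3 with Pbrm1, Trip13 with Brd9, Psma7 with Ss18l1, and Gm15860 with Bcl7a). For 24 genes the RefSeq start lay in the same window as the GENCODE start. For Smarcc1 it lay 14316 bp further into the gene, and only 1 of the 6 protein-coding transcripts starts in the gene's outermost window. The window at the RefSeq start of Smarcc1 (chr9:110131345-110133481), which holds the stretch printed above, read 10.8% at day 0, 15.9, 58.2, 27.6 and 19.8% in Nons and 34.9, 41.8, 23.2 and 0% after knockdown. Its mean difference was -5.40 points, opposite in sign to the 4.64 points of the outermost window, so no direction holds for the Smarcc1 promoter.

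The Smarca4 window begins 22 bp upstream of the gene's 5′ end, so most of the printed Smarca4 stretch falls in the window before it. That window (chr9:21614140-21616134) read 32.1% at day 0, 28.7, 46.3, 17.4 and 0% in Nons and 29.1, 37.1, 14.0 and 26.3% after knockdown, with a mean percentile of 70.0 against 77.2 in the window that holds the start. Its day 4 difference was 0.425 points and its mean over days 3.51 (limma unadjusted p = 0.485), so the day 4 difference of the Smarca4 window was not seen there. Actl6a stood at percentile 78 in the window of its RefSeq start, 2248 bp into the gene, against 52.2 at the GENCODE start. Bcl11b had a complete window at its RefSeq start, with a mean percentile of 66.2. With RefSeq starts throughout, all 31 genes were measured and the median subunit gene stood at a mean percentile of 69.2.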

How the data were processed

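NOMe-seq was analysed for 9 libraries, 1 for each condition and day. Per the study's methods the authors trimmed reads, aligned them with Bismark to mm10 with FVB and CAST variants masked, and extracted GpC calls. The deposited table holds, as a percent, the methylated share of the GpC calls of a window, in windows of 200 read positions per the file headers and name, with no normalization between libraries, so overall differences in labelling or sequencing move every window of a library. No read counts are given.

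Of 833294 deposited windows, 829493 entered the work: those on chromosomes 1 to 19 and X that no library lacked (median length 2809 bp over all). Gene 5′ ends came from GENCODE M21 and sequences from the same mm10 build. The hairpin came from the study's primer table. A percentile is the percent of other promoter windows below a gene's window, with ties weighted at 0.5. Gene body is the median of windows wholly inside the gene that hold no gene's 5′ end. Knockdown was tested with limma 3.58.1 in R 4.3.3 on the percent values with day as a block, days being a time course and not replicates, so p-values measure only the spread between single libraries. The fit and the percentiles were tested on simulated data. The members and gene lists were chosen with earlier results of these data known.

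By the rule set for named genes, values in every library are given for Smarcc1, Smarca4 and their paralogs, the families with a neuronal member (Actl6, Dpf and Ss18), the 3 genes highest and the 3 lowest in mean percentile, the 3 at each end of the mean knockdown difference, and those on 1 side of other promoters on all days. Alternatives were the choice of window, of other promoters and of scale, and leaving out days.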

Additional observations from a re-analysis of the deposited data

How the results depend on the processing

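Averaged over libraries, the median subunit gene ranked above the typical promoter under every alternative run, but its rank shrank with GC content. Its mean percentile was 58.7 against promoters of like GC and between 63.5 and 69.2 under the other 8 alternatives. Against promoters of like GC the rank was not higher in every library, with percentiles of 48.2 in Nons day 7 and 48.6 in knockdown day 6. The number of genes above other promoters in all libraries was 0 against promoters of like GC (3.48% of other promoters) and 1 with the mean over all coding transcript starts (4.89%). Genes below other promoters on all days numbered 5 with quantile normalization (6.38% of other promoters), and 6 without day 5 or without day 7 (12.4% and 12.9%), and genes above numbered 4 without day 4 or without day 5 (12.6% and 12.5%). With 3 days in place of 4, more windows of any kind fall on 1 side. In limma the adjusted calls were 0 under all 9 settings. Unadjusted calls over all windows were 20269 higher with quantile normalization, and without 1 day ranged from 9567 to 20928 higher and from 14315 to 27432 lower. Of 143 alternative mean differences of the 18 named genes, 134 kept their direction. These alternatives varied the scale, the days and windows at 0 or 100, not the window chosen for a gene. Those that reversed were Smarca2 without day 4 (2.12), Dpf1 without day 7 (-0.921), Dpf2 without day 5 (-0.794), Ss18 without day 4 (0.492), Bicra without day 4 (6.61) and without day 5 (4.81), and Phf10 on the arcsine scale (-0.0185), without day 5 (-6.31) and without day 7 (-0.913). At RefSeq starts, which are not among the 143, Smarcc1 also reversed, from 4.64 to -5.40. The causes were not tested. RefSeq starts, the window 100 bp upstream and leaving out both day 5 libraries were chosen after seeing the data. Depth is unknown and each condition and day has 1 library, so a single gene's difference cannot be told from the spread between libraries. No paired analysis by replicate was possible because each group holds 1 library, and days were paired instead.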

Other observations

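Chromatin remodellers outside BAF also ranked high where GC content was not matched. Of 42 measured genes of the ISWI, CHD and NuRD, and INO80 families, 7 were above the median of other promoters in all 9 libraries: Smarca5 (the ISWI ATPase), Baz1b, Chd2, Gatad2b, Rbbp7, Ep400 and Ruvbl1, where 4.8% of other promoters were. Neither this count nor the medians that follow were repeated against promoters of like GC. The medians of mean percentiles were 72.0 for ISWI, 72.1 for CHD and NuRD and 61.8 for the INO80 family. In limma 0 of the 42 passed the adjusted threshold, and at an unadjusted p under 0.05 there were 4 higher and 4 lower in the knockdown, beside 2.89% and 7.59% of other promoter windows.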
